A study of Rattus norvegicus with 2 samples.

Results

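Chemokines and their receptors were represented by 60 probe sets of 47 genes, of 20826 probe sets and 14217 genes that the array annotation names singly. They were taken by gene symbol alone: all single-gene probe sets of Ccl, Cxcl, Cx3cl, Xcl, Ccr, Cxcr, Cx3cr, Xcr and Ackr genes, with Ccrl2 and Pf4. The set held 30 ligand genes and 17 receptor genes. RNA came from microglia of Sprague Dawley background, the macrophages that reside in brain tissue, grown in DMEM with 10% FCS. One array held RNA of resting cells with no exposure (the control), and the other held RNA of cells exposed for 3 h to oxygen-glucose deprivation (OGD), which models ischaemia in culture. The age and number of the animals, and how the cells were isolated, were not stated in the labels.

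Chemokines are small secreted proteins that guide migrating leukocytes along gradients. They are named for the spacing of their first cysteines (CC, CXC, CX3C and XC) and bind receptors of the seven-transmembrane family that signal through inhibitory G proteins, while the atypical receptors bind ligand without this signal and act as scavengers. In the brain, microglia are both a source of inflammatory chemokines, such as Ccl2 and Ccl3, and a target of neuronal fractalkine (Cx3cl1) through Cx3cr1.

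Each group was 1 array, so no difference below has a test, a standard error or a replicate check, and every value describes these 2 arrays. Values are linear intensities, and differences are log2 OGD minus log2 resting. A floor was set on each array at the median of probe sets other than controls, 19.62 at rest and 19.66 after OGD, and a probe set above it on at least 1 array is called measured. The brightness of a probe set also depends on its probes, so levels are not compared between genes. In total RNA of a culture, fewer cells of a type and less RNA per cell cannot be told apart. All 13 microglia and macrophage markers with a probe set were measured, among them Trem2, Cd68, Aif1 and Itgam, and their summed intensity was 1458 at rest and 1408 after OGD. Trem2 (604 at rest) and Cd68 (371) were the brightest and weigh most in that sum. The log2 differences of these markers had a median of -0.096 and a range of -0.26 to 0.29. Of 6 astrocyte markers 2 were measured, Gfap and Slc1a2, and the summed intensity of that list was 95.5 at rest and 115 after OGD. Both measured markers were higher on the OGD array, each by 0.43. Fibroblast and endothelial markers had 2 of 6 measured, with sums of 126 and 147. Those measured, Col1a1 and Vwf, had differences of 0.21 and 0.28. The lists for neurons (1 of 5 measured), the oligodendrocyte lineage (3 of 5) and lymphocytes and neutrophils (1 of 4) had sums of 163 and 159.7, 119.3 and 119.6, and 53.5 and 55.1. The 1 measured neuron marker, Elavl3, had a difference of -0.11, and the 1 lymphocyte marker measured, Cd3e, had 0.105. The oligodendrocyte lineage markers differed in sign, with 0.23 for Mbp, -0.076 for Sox10 and -0.089 for Cspg4. The part of other cells in the chemokine values was not tested.

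Promoter sequences are shown for 5 members because the inducible chemokine genes are known targets of NF-kB and some receptor genes are known targets of hypoxia-inducible factors. RefSeq promoters of build GRCr8 matched 36 of the 47 genes, and the others were Ackr1, Ccl11, Ccl2, Ccl3, Ccl4, Ccl5, Ccr10, Ccr4, Cxcl3, Cxcr5 and Pf4. Each line gives the 250 bases before the start of the gene, read 5′ to 3′ on the strand of the gene, with capitals where a motif matched on either strand. The motifs were a kappa B pattern (GGG and TTCC with any 3 bases between them) and the core of the hypoxia response element (CGTG after A or G). Ccl7 and Cxcl10 are measured ligands with the kappa B pattern, Cxcl2 holds both motifs, Cxcr4 holds the hypoxia core, and Cxcr3 is the measured receptor with the largest difference.
Ccl7, chr10:67513845-67514094, plus strand: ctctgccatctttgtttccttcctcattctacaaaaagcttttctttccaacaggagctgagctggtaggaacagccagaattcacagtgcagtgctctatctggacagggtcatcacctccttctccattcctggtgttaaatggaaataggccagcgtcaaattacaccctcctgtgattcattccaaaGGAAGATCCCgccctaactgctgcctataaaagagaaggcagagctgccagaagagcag
Cxcl10, chr14:15988816-15989065, plus strand: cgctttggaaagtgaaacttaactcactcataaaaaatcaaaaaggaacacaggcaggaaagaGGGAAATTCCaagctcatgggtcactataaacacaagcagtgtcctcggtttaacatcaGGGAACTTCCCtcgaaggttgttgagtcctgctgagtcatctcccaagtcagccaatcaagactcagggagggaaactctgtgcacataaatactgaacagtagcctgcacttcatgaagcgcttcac
Cxcl2, chr14:17467256-17467505, minus strand: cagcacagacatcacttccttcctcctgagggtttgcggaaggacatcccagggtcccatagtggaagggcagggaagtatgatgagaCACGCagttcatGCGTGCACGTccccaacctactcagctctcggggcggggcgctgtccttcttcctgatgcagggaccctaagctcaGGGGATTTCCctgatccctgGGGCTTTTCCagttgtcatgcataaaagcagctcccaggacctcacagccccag
Cxcr4, chr13:42634289-42634538, minus strand: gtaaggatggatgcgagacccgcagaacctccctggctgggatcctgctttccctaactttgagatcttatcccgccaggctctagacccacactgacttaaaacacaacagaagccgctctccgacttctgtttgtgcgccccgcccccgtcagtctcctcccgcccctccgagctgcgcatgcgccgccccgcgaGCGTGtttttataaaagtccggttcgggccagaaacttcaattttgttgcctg
Cxcr3, chrX:70886945-70887194, minus strand: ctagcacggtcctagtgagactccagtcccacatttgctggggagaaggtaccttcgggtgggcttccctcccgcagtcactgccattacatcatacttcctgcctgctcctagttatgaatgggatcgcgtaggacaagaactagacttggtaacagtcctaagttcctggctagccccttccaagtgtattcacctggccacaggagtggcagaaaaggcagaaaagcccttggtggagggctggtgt

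The kappa B pattern was found in 10 of the 36 member promoters and in 4.53% of all 27457 promoters of the same length. Its holders were Ccl6, Ccl7, Ccl9, Ccl20, Ccr3, Cxcl1, Cxcl2, Cxcl6, Cxcl10 and Cxcl11. In Ccl7 the match began 59 bases before the start, on the opposite strand. In Cxcl10 matches began at -187 and -128, the second overlapping a match on the other strand at -127. Cxcl2 held matches beginning at -74 and -54. The hypoxia core, which is short, was found in 12 member promoters and in 37.9% of all promoters. Among its holders were Cxcr4 (at -53), Cxcl12, Cxcl2, Cxcl14 and Ackr3. Cxcl14 and Ackr3 each held 3 matches on the gene's own strand, and Cxcl2 held 3 over both strands. A palindromic match, as in Ccl28, counts on both strands. These matches describe letters in the window and were not tested as binding sites.

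No member probe set differed by 1.5-fold, the threshold in the series' design text. Of 60 member probe sets 25 (41.7%) were measured, against 58.7% of all probe sets naming 1 gene. They came from 23 genes, and 24 of them were above the floor on both arrays. Of these 25, 0 were higher and 0 lower by 1.5-fold or more, against 0.0899% higher and 0.0736% lower (0.164% together) among all 12231 measured probe sets naming 1 gene. At a lower mark of 1.2-fold, 1 was higher (Cxcr3) and 2 were lower (1 probe set of Cxcl3, and Ccr10), against 3.89% and 4.21% of all measured probe sets. Together 3 of 25, or 12%, passed the lower mark, against 8.1% of all, so the members' share lay near the background. In sign, 18 measured members were lower on the OGD array, 5 were higher and 2 were equal, with a median of -0.067. Over all measured probe sets 50.3% were lower and the median was -0.0031. Bright probe sets leaned lower as a whole: above a mean intensity of 100 the median of all was -0.030, and that of the 6 members there was -0.064. In the dimmer ranges the median of all was 0. Under 40 that of the 13 members was -0.064, and from 40 to 100 that of the 6 members was -0.12.

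**Figure D1:**
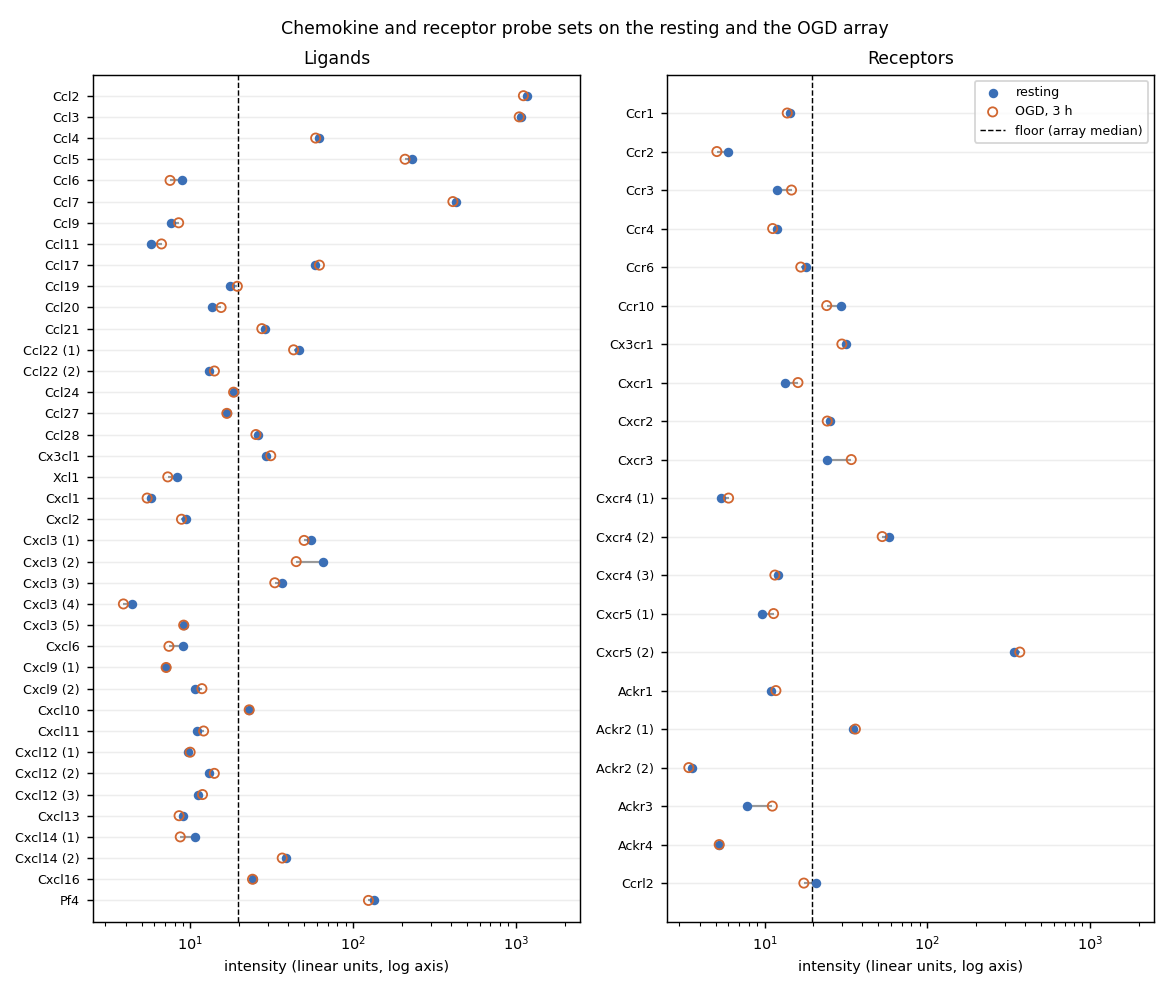
Intensity of all 60 member probe sets on the resting array (filled circles) and the OGD array (open circles), on a log axis, with ligands on the left and receptors on the right. The dashed line is the resting floor of 19.62; numbers in brackets count probe sets of 1 gene, and most pairs of circles overlap or touch.

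Among the CC ligands, Ccl2, Ccl3, Ccl4, Ccl5 and Ccl7 were measured, each lower on the OGD array by 1.11-fold or less. Ccl2, the main monocyte attractant, had an intensity of 1169 at rest and 1116 after OGD, a log2 difference of -0.067. Ccl7, a related monocyte attractant whose gene lies beside Ccl2 on chromosome 10, had 429 and 411, a difference of -0.061. Both were lower by less than 1.05-fold, and Ccl11, an eosinophil attractant next in that row of genes, was under the floor on both arrays at 5.69 and 6.63. Ccl3, a macrophage inflammatory protein, had 1079.8 at rest and 1052 after OGD, a difference of -0.038. Ccl4, a related inflammatory protein, had 61.7 and 58.9 (-0.067), and Ccl5, a T cell attractant, had 232 and 209. The difference of Ccl5, -0.15 or 1.11-fold lower, was the largest among the measured CC ligands. Ccl3, Ccl4, Ccl5, Ccl6 and Ccl9 stand together in the gene order of chromosome 10, and the last 2 were under the floor, Ccl6 at 8.87 and 7.49 and Ccl9 at 7.57 and 8.46.

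Of 17 probe sets of CC ligands, 9 were measured, of which 8 were lower and 1 was higher on the OGD array, with a range of -0.15 to 0.094 and none past 1.2-fold. The higher one was Ccl17, a ligand of Ccr4, at 58.2 at rest and 62.1 after OGD. Ccl22, the other Ccr4 ligand, had 46.3 and 43.1 in its measured probe set (-0.10) and 13.0 and 14.0 in the other, which was under the floor and differed in sign. Ccl21, which guides cells to lymph nodes through Ccr7, had 28.9 and 27.5. Ccl28, a chemokine of mucosal tissues, had 25.8 and 25.3. Both lay just over the floor. The remaining CC ligands were under it on both arrays: Ccl19 at 17.4 and 19.4, Ccl20 at 13.5 and 15.4, Ccl24 at 18.4 on each and Ccl27 at 16.7 on each.

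The neutrophil-attracting CXC ligands, which signal through Cxcr2, were measured only as Cxcl3. Its 5 probe sets were the most of any member, and 3 of them were above the floor on both arrays. The first had an intensity of 55.5 at rest and 49.98 after OGD, a difference of -0.15. The second had 65.2 and 44.7, a difference of -0.54 or 1.46-fold lower, the largest of any member and under the threshold of 1.5-fold. The third had 36.4 and 33.0, a difference of -0.14. All 3 were thus lower on the OGD array, with a mean of -0.28 and an SD between probe sets of 0.23, against 0.147 between probe sets of 1 gene over 1902 genes. These probe sets share 1 RNA sample per array, so the SD covers noise between probe sets alone. The annotation gives all 3 the same source sequence, so they are not independent readings of the gene. The second carries the suffix _x_at, which Affymetrix gives to probe sets with probes that can also match other sequences. Without it the other pair of measured probe sets differed from rest by 1.11-fold and 1.10-fold. Of the Cxcl3 probe sets under the floor, 1 had 4.35 and 3.87 and the other 9.08 on each array. Cxcl1 (5.70 and 5.41), Cxcl2 (9.36 and 8.80) and Cxcl6 (9.01 and 7.37) did not reach the floor on either array, so they have no fold, although each value was lower after OGD.

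**Figure D2:**
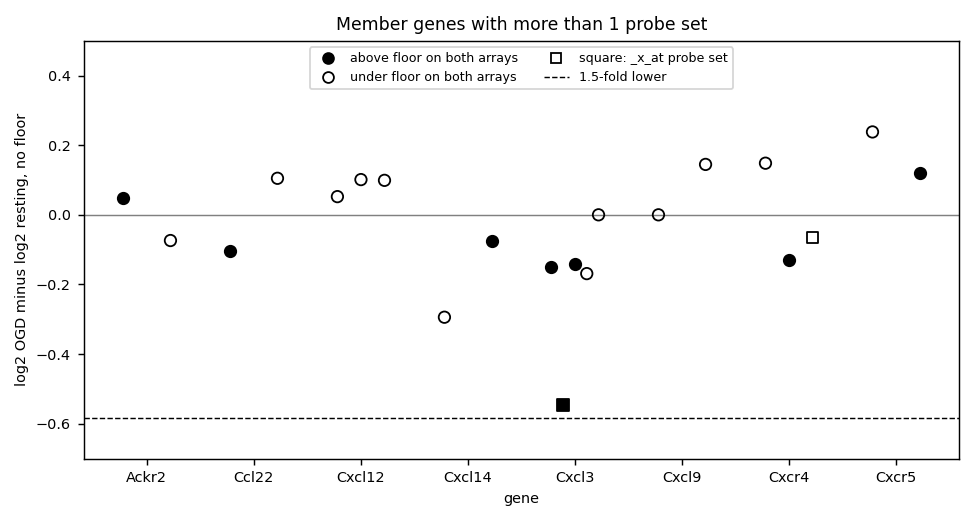
Log2 differences without a floor for each probe set of the 8 member genes that have more than 1, with filled symbols where both arrays were above the floor, open symbols for those under it, and squares for the suffix _x_at. The filled square of Cxcl3 at -0.54 lies apart from the other 4 probe sets of that gene, which lie between -0.17 and 0.

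Interferon-inducible CXC ligands, which attract activated T cells through Cxcr3, were measured only as Cxcl10. It had 23.0 on each array, just over the floor and an exact tie in the deposited values. Cxcl11 was under the floor at 10.9 and 12.04, as were both probe sets of Cxcl9, with 10.6 and 11.8 in one and 7.08 on each array in the other. Exact ties were found for 7 of the 60 member probe sets, or 11.7%, and for 8.19% of all probe sets naming 1 gene, so a tie may not show an unchanged level. Cxcl16, a membrane-bound ligand that also takes up oxidised lipid, had 24.1 on each array and was the other tie among measured members.

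Probe sets of the constitutive CXC ligands were mostly under the floor, although Cxcl14 and Pf4 each had a measured one. Cxcl12, which holds stem cells and neural progenitors in place through Cxcr4, had 3 probe sets, all under the floor on both arrays. These had 9.60 and 9.95, 13.1 and 14.0, and 11.1 and 11.9, each a little higher after OGD. Cxcl13, a B cell attractant, had 8.97 and 8.51. Cxcl14, a ligand of epithelial and other tissues, had 38.7 and 36.7 in the measured probe set and 10.6 and 8.65 in the other. Pf4, platelet factor 4, was measured at 135 and 124, a difference of -0.12 or 1.09-fold lower. Outside the CC and CXC families, Cx3cl1 was measured at 29.2 at rest and 31.2 after OGD, a difference of 0.096. Xcl1, a T cell product, was under the floor at 8.21 and 7.25. Over all ligands 17 of 39 probe sets were measured, of which 13 were lower, 2 were higher and 2 were equal.

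Among measured probe sets, receptors held the 2 largest differences outside Cxcl3. Cxcr3, the receptor of Cxcl9, Cxcl10 and Cxcl11, had an intensity of 24.2 at rest and 34.2 after OGD, a difference of 0.50 or 1.41-fold higher. It has 1 probe set and its resting value lay just above the floor of 19.62. Ccr10, the receptor of Ccl27 and Ccl28, had 29.5 at rest and 24.1 after OGD, a difference of -0.29 or 1.22-fold lower. Both lie in the dim range, where 11.1% of measured probe sets with a mean intensity under 40 passed 1.2-fold in either direction, against 3.9% of those over 100. Of the 13 measured members in that dim range, these 2 passed. The Cxcl3 probe set at -0.54 lies in the range from 40 to 100, where 7.96% passed.

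**Figure D3:**
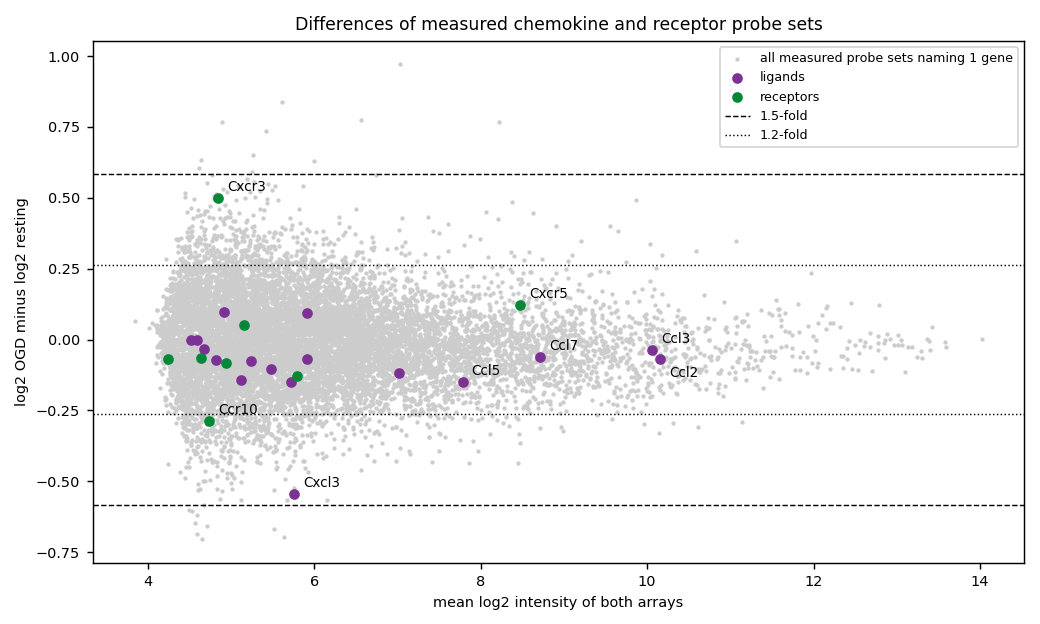
Log2 difference against mean log2 intensity for the 25 measured member probe sets (purple ligands, green receptors) over all 12231 measured probe sets naming 1 gene (grey), with values under the floor set to it. Dashed lines mark 1.5-fold and dotted lines 1.2-fold; Cxcr3 at 0.50, Ccr10 at -0.29 and a Cxcl3 probe set at -0.54 are the members beyond the dotted lines.

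The other measured CXC and CX3C receptors, besides Cxcr3, had differences from -0.13 to 0.12. Cx3cr1, the fractalkine receptor and a microglial marker, had 31.6 at rest and 29.9 after OGD, a difference of -0.081. Cxcr4, the Cxcl12 receptor, had 58.0 and 52.9 in its measured probe set, a difference of -0.13 or 1.09-fold lower. Its other 2 probe sets were under the floor, at 12.1 and 11.6 and at 5.42 and 6.01, and they differed in sign. The annotation gives the one at 12.1 the same source sequence as the measured one. Which of the Cxcr4 probe sets reports the gene was not tested. Cxcr2, the receptor of the neutrophil-attracting ligands, had 25.4 and 24.3, while Cxcr1 was under the floor at 13.4 and 16.1. Cxcr5, the Cxcl13 receptor of B cells, had probe sets that disagreed on detection: 1 had 342 and 371, a difference of 0.12, and the other was under the floor at 9.64 and 11.4. Which of them reports the gene was not tested.

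Of 6 CC receptor probe sets only Ccr10 was measured. Ccr1, a receptor of Ccl3 and Ccl5, had 14.3 at rest and 13.8 after OGD. Ccr2, the Ccl2 receptor of monocytes, had 5.97 and 5.09. Ccr3 had 11.9 and 14.7, Ccr4 11.98 and 11.2, and Ccr6, the Ccl20 receptor, 17.95 and 16.7. None of these 5 reached the floor on either array, so no fold is stated.

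Atypical receptors were likewise dim. Ackr2, a scavenger of inflammatory CC chemokines, had 35.0 and 36.2 in its measured probe set, a difference of 0.050, and 3.60 and 3.42 in the other. Ccrl2, which binds chemerin and is induced in activated myeloid cells, had 20.6 at rest and 17.5 after OGD. As the OGD value was under the floor, it was at least 1.05-fold lower. Ackr3, the scavenger of Cxcl12 and Cxcl11, had 7.79 and 11.2, both under the floor, so its higher value is given no fold. Ackr1 (10.9 and 11.8) and Ackr4 (5.26 on each) were also under the floor.

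Ligands and the signalling receptors named with them above can be set side by side. Cx3cl1 and Cx3cr1 were both measured, with differences of 0.096 and -0.081. Cxcl3 and Cxcr2 both were, with -0.54, -0.15 and -0.14 for the ligand and -0.064 for the receptor. Ccl28 and Ccr10 both were, with -0.033 and -0.29. Cxcl10 and Cxcr3 both were, with 0 and 0.50. For Cxcl12 and Cxcr4 the receptor alone was measured (in 1 of its probe sets), and for Ccl2 and Ccr2 the ligand alone. The receptor alone was also measured for Cxcl13 and Cxcr5 (in 1 of its probe sets), and for Ccl27 with Ccr10. The same held for Cxcl9 and Cxcl11 with Cxcr3, and for Cxcl1, Cxcl2 and Cxcl6 with Cxcr2. Ligands alone were measured for Ccl3 and Ccl5 with Ccr1, and for Ccl17 and Ccl22 with Ccr4. For Ccl20 and Ccr6 neither was measured. Among genes whose promoter held the hypoxia core, those measured were Ccl28 (-0.033), Cxcl14 (-0.077), Cxcr4 (-0.13) and Ccrl2 (a bound on the lower side). Among genes with the kappa B pattern, Ccl7 (-0.061) and Cxcl10 (0) were measured. Ccl2, Ccl3, Ccl4, Ccl5, Ccr10, Cxcl3, Cxcr5 and Pf4 were measured but had no promoter sequence to search for either motif.

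Among genes that carry the signal of chemokine receptors inside the cell, no measured difference reached 1.5-fold either. Of a list of 60 such genes 50 had a probe set and 43 were measured, each gene standing with its brightest probe set. Of these 18 were higher, 22 were lower and 3 were equal, with a median of -0.010, against -0.0077 over 9580 measured genes. After quantile or loess scaling the list's median was 0.0062 or 0.0045. At 1.5-fold 0 were higher and 0 lower, against 0.0731% and 0.0418% of all genes. At 1.2-fold 0 were higher and 1 was lower, against 3.56% and 3.97%.

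The gene past 1.2-fold was Jak2, a tyrosine kinase of cytokine receptors, with 38.0 at rest and 27.3 after OGD, a difference of -0.48 or 1.39-fold lower. It lies in the dim range under 40, where 11.1% of measured probe sets passed 1.2-fold, and had no other probe set above the floor on both arrays. Grk6, a kinase that desensitises chemokine receptors, had 2059 and 1792 (-0.20), and its other probe set above the floor had 0.10. Gng12, a G protein gamma subunit, had 209 and 182 (-0.20). Its other probe set above the floor had -0.49, which is past 1.2-fold but was not counted, as it was not the brightest. On the higher side, Arrb1, the arrestin that uncouples and internalises receptors, had 115 and 131 (0.19). Rgs16, which shortens G protein signals, had 24.2 and 27.6 (0.19). Prex1, an exchange factor for Rac, had 30.4 and 34.0 (0.16). Gnai2, the inhibitory G protein subunit of leukocytes, had 638 and 656, a difference of 0.039.

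**Figure D4:**
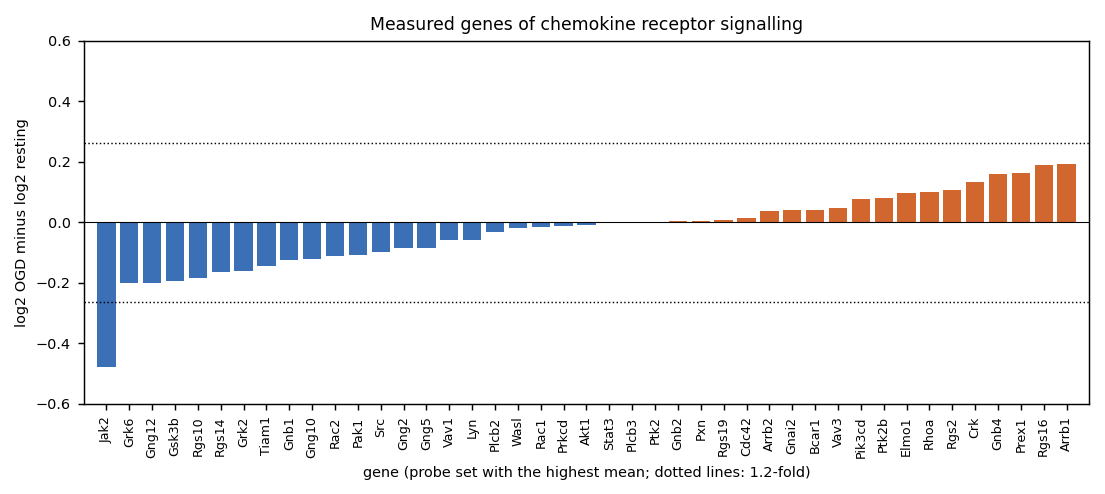
Log2 differences of the 43 measured genes of chemokine receptor signalling, each by its brightest probe set, ordered by value, with dotted lines at 1.2-fold. Jak2 at -0.48 is the gene beyond a dotted line, and the others lie between -0.20 and 0.19.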

How the data were processed

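Total RNA was extracted with TRIzol and labelled by in vitro transcription from an oligo(dT) primer, per the labels' protocols, and hybridised to Affymetrix rat arrays. The deposited values are intensities, 1 linear value per probe set and array; the authors' background correction, summarisation and scaling are not given in sources used here. Of 31099 probe sets 57 were array controls, and the platform annotation gave 1 gene for 20826, several for 436 and none for 9780. All 47 member genes matched the RefSeq table of GRCr8 by Entrez ID.

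Python 3.11.15 with pandas 2.3.3 computed log2 differences after raising values under the floor (the median over probe sets other than controls, array by array) to it. A probe set above the floor on 1 array has a bound, and under it on both no fold. With 1 array per group no test was made, and the number of arrays limits the precision. Counts used fixed folds of 1.5 and 1.2. All member probe sets are named, and of the signalling list the 3 largest differences in each direction, besides Gnai2, which was chosen after its value was seen. The members and lists were chosen with earlier results of these data known. The calculation was tested on simulated arrays. Changes were set there only in probe sets over 100 at rest, with a smaller spread of differences than in these arrays. Folds near the floor were not covered. Alternatives tried a floor at percentile 30 or 70, no floor, a pseudocount at the 25th percentile, median centring, quantile and loess (span 0.3) scaling, and other choices of probe sets.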

Additional observations from a re-analysis of the deposited data

How the results depend on the processing

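No paired analysis was possible because each group holds 1 array, and for the same reason no array could be left out. The counts at 1.5-fold were 0 in each direction under all 11 alternatives to the floor, the log scale, the scaling and the probe sets. In the main setting 0.164% of all measured probe sets passed 1.5-fold, so a count of 0 among so few members says little. At 1.2-fold, where 1 member was higher and 2 were lower, the count of higher members was 2 with the floor at the 30th percentile, 0 at the 70th, 3 with no floor and 2 with the pseudocount. The count of lower members was 1 at the 70th percentile, 4 with no floor, 1 with the pseudocount and 1 without probe sets of the suffixes _s_at, _x_at and _a_at, which leaves out the Cxcl3 probe set at -0.54. Measured member probe sets numbered 44 at the lower floor, 12 at the higher floor and 60 without a floor or with the pseudocount, against 25. The median of the measured members stayed below 0 throughout, from -0.086 at the higher floor to -0.027 with the pseudocount. Cxcr3 ranged from 0.39 to 0.50, the Cxcl3 probe set from -0.54 to -0.47 and Ccr10 from -0.29 to -0.22. Of 208 values of single measured probe sets under an alternative, 0 had the opposite sign. Most of these could not change sign, since only quantile and loess scaling moved values in a way that allowed it. Cxcl10 and Cxcl16, at 0 in the main setting, fell slightly below 0 after both scalings. The median of the signalling list, whose alternatives were chosen after seeing the data, was above 0 after quantile (0.0062) and loess scaling (0.0045). Signal over background limits the rest: 35 of the 60 member probe sets were under the floor on both arrays, so a difference there could go unseen. Of all 20826 probe sets naming 1 gene, 8595 were under it on both.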

Other observations

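The differences of the deposited values repeat. To 6 decimals, Ccl17 and Ccr4 had the same absolute log2 difference, 0.094, in opposite directions, and Ccl19 and Ccl9 both had 0.16. Of the 53 member probe sets that differed between the arrays, 40 shared their absolute difference with another probe set of the array. Over all 31042 non-control probe sets 28341 differed, with 10680 distinct absolute differences, and 72.0% of them shared theirs with another. The commonest, 0.079, was found in 245 probe sets, and 8.7% of the non-control probe sets had exactly the same value on both arrays.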
